A study of Arabidopsis thaliana with 8 samples.

Results

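A set of 10 genes that are read as markers of leaf ageing were followed in leaves of Arabidopsis plants that overexpress RAP2.9, which codes for an AP2/ERF-type transcription factor. They were chosen by locus and comprise the senescence markers SAG12, SAG13, SAG14 and SEN1, the ribonuclease genes RNS1 and RNS2, and the chlorophyll breakdown genes SGR1, NYC1, PAO and PPH. All 10 have probes on the array, 18 of 43603 probes, and the array covers 25410 loci in all. The comparison was 4 arrays from 35S::Rap2.9-GFP plants, in the Col-0 background, against 4 arrays from wild-type Col-0 plants. The transgene drives RAP2.9, fused to green fluorescent protein, from the viral 35S promoter, which is active in most plant tissues rather than in leaf cells alone. All leaves came from untreated plants, 54 days after their move to light, with 20 days of 8 h light and then 34 days of 12 h light, and the labels name each sample a replicate of its genotype. The sources used here do not give the number of independent transgenic lines, or of plants behind a sample.

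Leaf senescence is the ordered dismantling of a leaf, in which chloroplast proteins, RNA and chlorophyll are degraded and their nitrogen, phosphate and carbon move to growing organs. Chlorophyll leaves by the PAO route: chlorophyll b is first reduced to chlorophyll a, the magnesium is removed, the phytol tail is cut off, and the ring is then opened to colourless products. Genes of the SAG and SEN series were named because their transcripts accumulate in ageing leaves, although several of them also respond to stress, darkness or sugar.

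Each level is the log2 of a probe's processed signal divided by the 75th percentile of its own array, so 0 is that percentile and values of different probes cannot be ranked against each other. A gene was called higher or lower when limma's adjusted p for its brightest probe was under 0.05. Of the 10 genes, 4 were higher in the transgenic leaves, 3 were lower and 3 did not pass. Over all 20268 loci tested, 36.9% passed, 20.1% as higher and 16.8% as lower. With each array scaled to its median instead, 34.5% of loci passed, 13.7% as higher and 20.7% as lower, and the same 7 genes passed in the same directions. The median log2 change was 0.01 over the 10 genes and 0.04 over all loci. For 6 of the 10 genes the arrays of one genotype all lay on one side of the other genotype's arrays, 3 of them higher and 3 lower. The same held for 39.5% of loci, 21.4% higher and 18.1% lower. Of single probes, 34% passed, 18.2% as higher and 15.8% as lower, and of the 18 probes of the 10 genes 8 rose, 3 fell and 7 missed the threshold. Of those 8, 5 measure the same SAG14 transcript and do not count as separate results. With normexp background correction, a model of signal and background on each array, 1 of the 10 genes was higher (SAG13) and 1 lower (PPH). Of all loci 12.1% passed in that setting, 5.63% as higher and 6.51% as lower. It starts from unprocessed median spot signals, so it differs from the reported setting in more than the background correction. These are whole-leaf samples, so fewer cells with a transcript and less transcript per cell cannot be told apart.

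**Figure D1:**
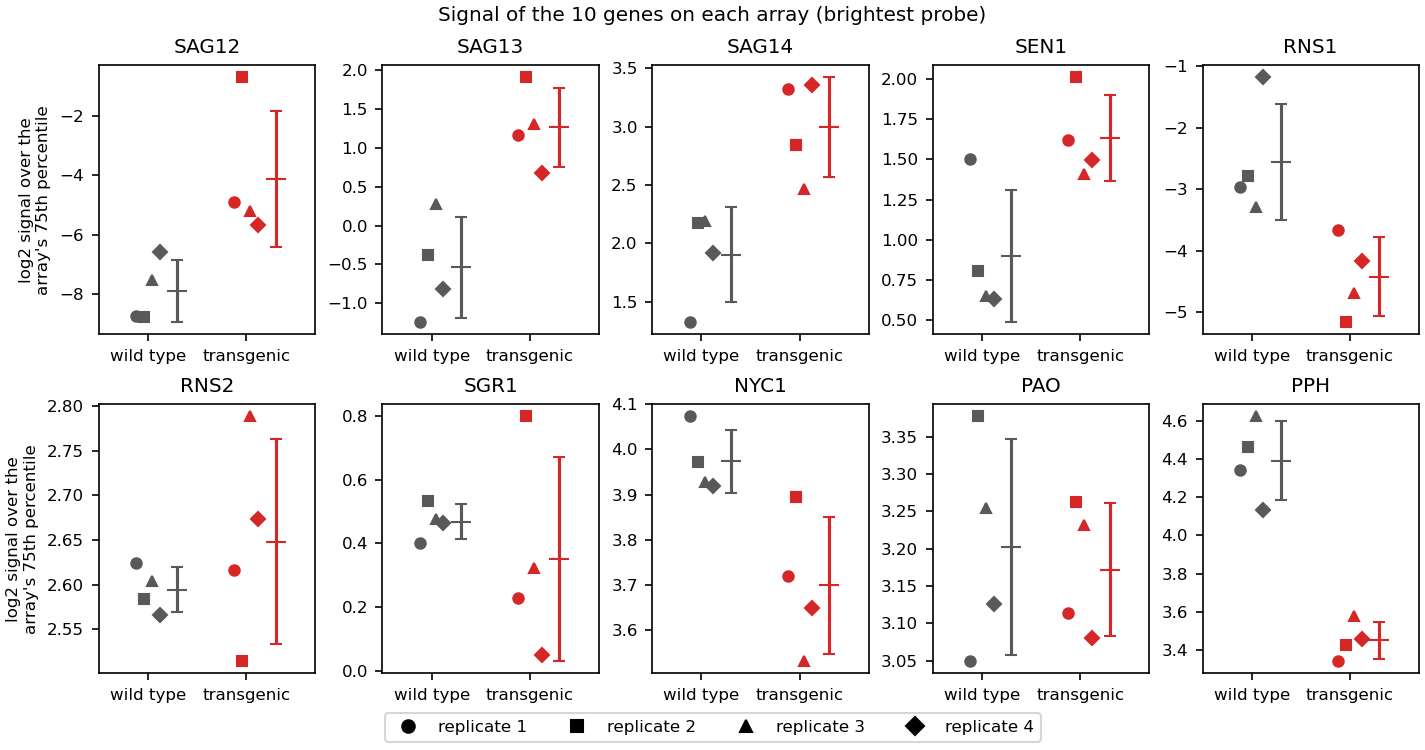
Log2 level relative to the 75th percentile of the array (vertical axis, a separate range in each panel) of the brightest probe of each gene, on the 4 wild-type arrays (grey) and the 4 transgenic arrays (red). Markers give the replicate number, and bars give the mean ± SD (n = 4). The genotypes do not overlap for SAG12, SAG13, SAG14, RNS1, NYC1 and PPH.

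The 4 senescence markers were higher in the transgenic leaves. SAG12 (AT5G45890), a cysteine protease gene whose transcript is among the most specific to aged leaves, was hardly measurable in the wild type. Its brighter probe read 5, 4.7, 9.2 and 17.9 in processed signal on wild-type replicates 1 to 4, and 86, 1050.4, 70.6 and 50.1 on transgenic replicates 1 to 4. Every transgenic array lay above every wild-type array, and transgenic replicate 2 stood far above the other 3. The log2 levels were -7.91 ± 1.05 (SD, n = 4) and -4.12 ± 2.30 (SD, n = 4), a fitted log2 change of 3.80 ± 1.13 (SE) with a limma adjusted p of 0.0351. Of the wild-type arrays 1 was well above background for this probe, and of the transgenic arrays 4 were. The size of the change thus depends on how dim signals are treated. The filter asks for 4 of 8 arrays, so this probe entered the test through the group where it is high. With no filter on dim probes it did not pass (limma adjusted p = 0.0592).

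The SAG12 call was not stable. Its second probe read 108.1, 4.1, 6 and 3.6 in the wild type and 46.8, 722.4, 49.9 and 53.7 in the transgenic leaves. Here wild-type replicate 1 lay above 3 of the 4 transgenic arrays, although the brighter probe on the same array read 5. The log2 change of that probe was 3.02 ± 1.39 (SE), which did not pass (limma adjusted p = 0.133), and without wild-type replicate 1 it was 4.11 (limma adjusted p = 0.0397). For the brighter probe, normexp background correction gave a log2 change of 1.03 (limma adjusted p = 0.67), and raising dim values to the array's detection floor gave 2.69 (limma adjusted p = 0.0773). Leaving out wild-type replicate 1, 2 or 3 or transgenic replicate 1 ended the call, with adjusted p values of 0.0819, 0.0828, 0.0687 and 0.0501 in that order. Without transgenic replicate 2, the array with the high value, the change was 2.66 and the call held. Among 2712 probes of like brightness, transgenic replicate 1 deviated from its genotype mean by a median of 0.86 and transgenic replicate 4 by -0.46, and the part of this in the SAG12 result was not tested.

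SAG13 (AT2G29350) codes for a short-chain dehydrogenase and is an early marker of senescence that also responds to stress. Its levels were -1.25, -0.38, 0.28 and -0.81 on wild-type replicates 1 to 4 and 1.16, 1.91, 1.31 and 0.68 on transgenic replicates 1 to 4. The lowest transgenic array was above the highest wild-type array. SAG13 rose by 1.80 ± 0.37 (SE, n = 4 per genotype) on the log2 scale, 3.49-fold, with a limma adjusted p of 0.00831. The change was 1.78 on the first slide and 1.83 on the second, each slide holding 2 arrays of each genotype.

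SAG14 (AT5G20230), also named BCB, codes for a blue copper-binding protein. Its brightest probe was at 1.33, 2.17, 2.20 and 1.92 in the wild type and at 3.32, 2.84, 2.47 and 3.35 in the transgenic leaves. The wild type was lowest on replicate 1, and no wild-type array reached the lowest transgenic array. The log2 change was 1.09 ± 0.26 (SE), 2.13-fold (limma adjusted p = 0.0163). All 5 SAG14 probes rose, by 1.09 to 1.32, with limma adjusted p values of 0.0119 to 0.0246. With normexp background correction the brightest probe changed by 1.04 and did not pass (limma adjusted p = 0.0847), while 3 of the other 4 probes still passed. With replicate number as a block in the fit, none of the 5 probes passed (limma adjusted p of 0.0555 to 0.0905).

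SEN1 (AT4G35770), also named DIN1, is induced by darkness and repressed by sugar. Its brighter probe was at 1.5, 0.80, 0.65 and 0.63 in the wild type and at 1.62, 2.01, 1.41 and 1.5 in the transgenic leaves. Wild-type replicate 1 overlapped the transgenic range, and the other 3 wild-type arrays lay below it. The log2 change was 0.74 ± 0.22 (SE), 1.67-fold (limma adjusted p = 0.0366). Leaving out any 1 array other than wild-type replicate 1 or transgenic replicate 3 ended the call, 6 of 8 such fits, and the highest of their adjusted p values was 0.0938. The other SEN1 probe changed by 0.54 ± 0.21 (SE, limma adjusted p = 0.0857) and did not pass, but passed at 0.74 without wild-type replicate 1.

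**Figure D2:**
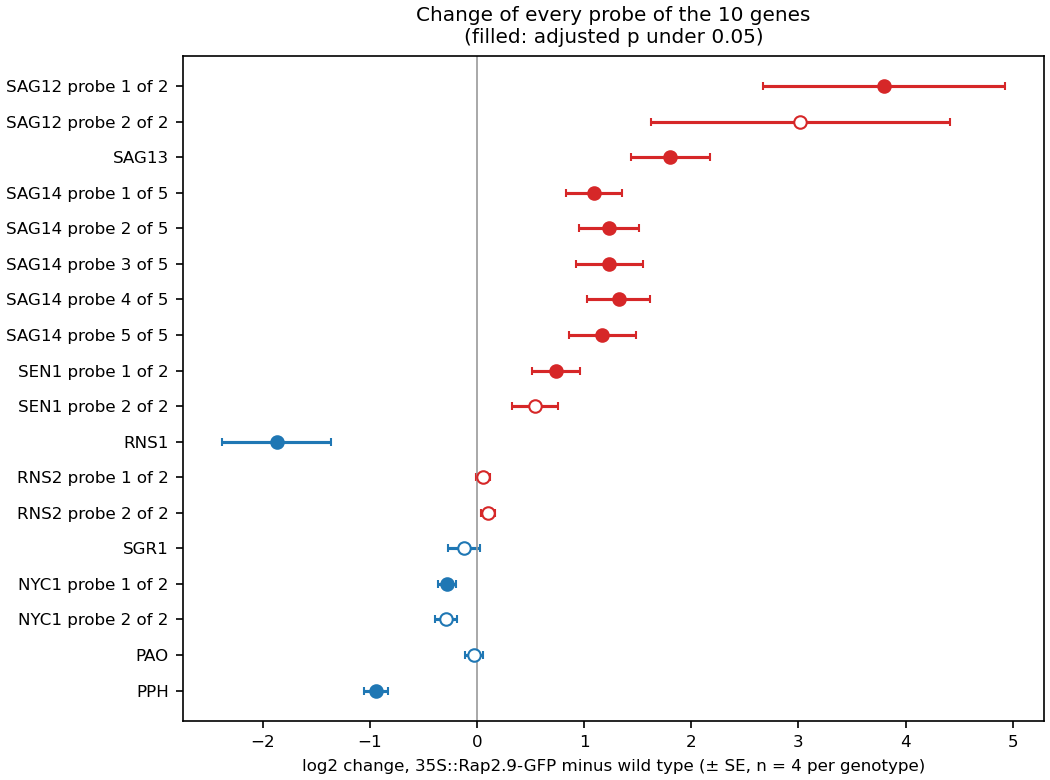
Log2 change of the transgenic over the wild-type leaves (horizontal axis, ± SE, n = 4 arrays per genotype) for all 18 probes of the 10 genes. Filled points have an adjusted p under 0.05. All 5 SAG14 probes rose, while SAG12, SEN1 and NYC1 each have 1 probe past the threshold and 1 not.

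The 2 ribonuclease genes did not move alike. RNS1 (AT2G02990) codes for a secreted RNase that phosphate starvation, wounding and senescence induce. Its single probe was at -2.96, -2.77, -3.29 and -1.18 in the wild type and at -3.67, -5.16, -4.69 and -4.16 in the transgenic leaves. Every transgenic array was under every wild-type array, and wild-type replicate 4 was the highest. RNS1 fell by 1.87 ± 0.51 (SE) on the log2 scale, 3.65-fold (limma adjusted p = 0.026). RNS1 no longer passed when transgenic replicate 2 was left out (limma adjusted p = 0.059) or transgenic replicate 3 (limma adjusted p = 0.0641). With normexp background correction its change was -1.26 (limma adjusted p = 0.13).

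RNS2 (AT2G39780) codes for the vacuolar RNase that turns over ribosomal RNA in healthy cells as well as in ageing ones. Its brighter probe was at 2.62, 2.58, 2.60 and 2.57 in the wild type and at 2.62, 2.51, 2.79 and 2.67 in the transgenic leaves, ranges that overlapped. The log2 change was 0.05, with a 95% confidence interval of -0.10 to 0.21 (limma adjusted p = 0.558), and the other probe was at 0.11 (adjusted p = 0.237). Under median scaling the estimate of the brighter probe was -0.034.

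None of the 4 chlorophyll breakdown genes among the 10 was higher. Of all loci 20.1% were, so a count over 4 genes says little about the route. They are given here in the order in which their enzymes act. NYC1 (AT4G13250) codes for a chlorophyll b reductase, the enzyme of the first step. Its brighter probe was at 4.07, 3.97, 3.93 and 3.92 in the wild type and at 3.72, 3.89, 3.53 and 3.65 in the transgenic leaves. The genotypes did not overlap, but the gap between the nearest arrays was 0.026. NYC1 fell by 0.27 ± 0.08 (SE) on the log2 scale, 1.21-fold (limma adjusted p = 0.0401). Of 8 fits with 1 array fewer, NYC1 passed in the one without transgenic replicate 2 and missed the threshold in the other 7. The other probe, at -0.29, did not pass (adjusted p = 0.0605).

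SGR1 (AT4G22920), also named NYE1, codes for the magnesium dechelatase that starts the breakdown of chlorophyll a, and is a widely used marker of yellowing. Its levels were 0.40, 0.53, 0.48 and 0.46 in the wild type and 0.23, 0.80, 0.32 and 0.05 in the transgenic leaves. Transgenic replicate 2 was above all wild-type arrays and the other 3 were below them. The log2 change was -0.12, with a 95% confidence interval of -0.47 to 0.23 (limma adjusted p = 0.572). Without transgenic replicate 2 it was -0.27 and passed (limma adjusted p = 0.0393).

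PPH (AT5G13800) codes for pheophytinase, which removes the phytol tail. Its levels were 4.34, 4.46, 4.62 and 4.13 in the wild type and 3.34, 3.43, 3.58 and 3.45 in the transgenic leaves. Every transgenic array was below every wild-type array, with a gap of 0.55 between the nearest. PPH fell by 0.94 ± 0.11 (SE) on the log2 scale, 1.92-fold, with a limma adjusted p of 0.000751. The change was -1.04 on the first slide and -0.84 on the second. PPH and SAG13 were the 2 genes of the 10 that kept their call in all 21 alternative settings tried.

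PAO (AT3G44880), also named ACD1, codes for pheophorbide a oxygenase, which opens the ring and gives the route its name. Its levels were 3.05, 3.38, 3.26 and 3.13 in the wild type and 3.11, 3.26, 3.23 and 3.08 in the transgenic leaves, wholly within the wild-type range. The log2 change was -0.03, with a 95% confidence interval of -0.23 to 0.17 (limma adjusted p = 0.814). The interval leaves room for changes of that size in either direction.

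**Figure D3:**
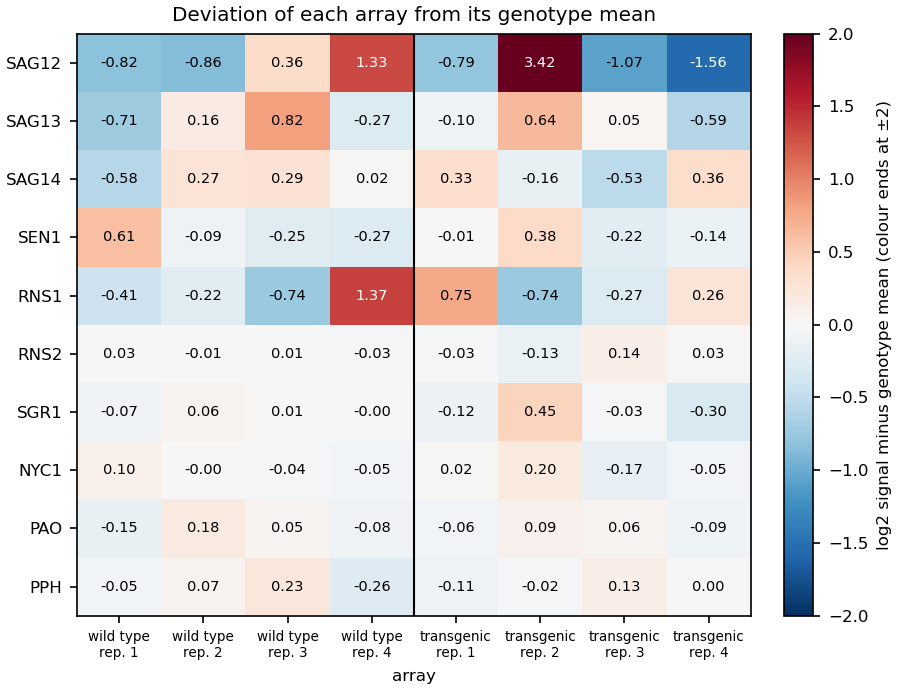
Deviation of the log2 signal of each array (columns) from the mean of its genotype, for the brightest probe of each gene (rows). Red is above and blue below the genotype mean, and the colour ends at 2 while the printed numbers do not. Transgenic replicate 2 is the highest of the 4 transgenic arrays for 6 of the 10 genes.

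The transgenic arrays did not vary alike across the 10 genes. Transgenic replicate 2 was the highest of its genotype for SAG12, SAG13, SEN1, SGR1, NYC1 and PAO, and the lowest for RNS1 and RNS2. Its deviation from the genotype mean was 3.42 for SAG12, 0.64 for SAG13, 0.45 for SGR1 and 0.38 for SEN1. Among probes of like brightness to each of the 10 genes, its median deviation lay between -0.03 and 0.03. This array also had the lowest 75th percentile of signal, 1699 against 2562 to 2576 on the other transgenic arrays. The wild-type arrays were at 1724 to 2150, and the part of this in the pattern was not tested. Without transgenic replicate 2, SAG12, SAG13 and SAG14 were still higher and NYC1 and PPH still lower. SGR1 was added as lower, and the calls of SEN1 and RNS1 were lost. That fit called 35.3% of all loci, 19% as higher and 16.3% as lower.

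By likeness to SAG12 in these deviations, over 8 arrays and 20166 other loci, the nearest genes were CAT3 (AT1G20620), CAB1 (AT1G29930) and LHCA1 (AT3G54890). CAT3 codes for a peroxisomal catalase, and CAB1 and LHCA1 for chlorophyll-binding antenna proteins. Pearson's r was 0.995, 0.992 and 0.987, and Spearman's rho 0.929, 0.929 and 0.905. Without transgenic replicate 2 and wild-type replicate 4, the arrays farthest from the median, r was 0.963, 0.965 and 0.908. The wild-type mean log2 levels of the 3 were 7.34, 7.97 and 7.83, far above the 75th percentile, while SAG12 was far below it. All 3 were above their genotype mean on transgenic replicate 2, by 0.34, 0.35 and 0.37, which the choice by likeness to SAG12 fixes. That array also had the lowest 75th percentile, by which the levels are scaled, and the part of this was not tested. None of them passed the test between genotypes, with log2 changes of -0.22, -0.21 and -0.10. These are descriptions over arrays that share scaling and slides, taken as the highest of many loci.

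Other genes of chlorophyll breakdown moved both ways. Among 11 such genes tested, 5 rose, 2 fell and 4 missed the threshold, and the median log2 change was 0.15. The counts were not stable. With normexp background correction 2 rose and 1 fell, and with median scaling 3 rose and 2 fell. Leaving out 1 array at a time gave 3 or 4 higher and 1 or 2 lower. Called genes made up 63.6% of this list, against 36.9% of all loci. CLH1 (AT1G19670), a chlorophyllase that wounding and jasmonate induce, rose by 1.61 ± 0.10 (SE), 3.06-fold (limma adjusted p = 6.04e-05). Its levels were 3.26 ± 0.11 (SD, n = 4) and 4.87 ± 0.18 (SD, n = 4), with every transgenic array above the wild type. MES16 (AT4G16690), an esterase that acts on the products of the opened ring, rose by 1.33 ± 0.08 (SE, limma adjusted p = 4.11e-05), a call lost with normexp background correction. SGRL (AT1G44000), a relative of SGR1, rose by 0.72 ± 0.10 (SE, limma adjusted p = 0.00137). The others that rose, NOL and CLH2, changed by 0.15 and 0.22 (limma adjusted p = 0.0379 and 0.0476). They were chosen for mention after their values were seen. HCAR (AT1G04620), which completes the conversion of chlorophyll b to a, fell by 0.60 ± 0.07 (SE, limma adjusted p = 0.001). SGR2 (AT4G11910), the closest relative of SGR1, fell by 0.46 ± 0.15 (SE, limma adjusted p = 0.0453), and its second probe did not pass at -0.40. SGR2 missed the threshold in 6 of 8 fits with 1 array fewer.

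Among 16 further genes named for senescence, darkness or leaf yellowing, 9 rose, 3 fell and 4 missed the threshold. The share called was 75%, against 36.9% of all loci, 20.1% as higher and 16.8% as lower. The median log2 change was 0.63, and the list was chosen with earlier results of these data known. SAG29 (AT5G13170), the sugar transporter also named SWEET15, was at -9.08, -9.06, -8.20 and -6.19 in the wild type and at -1.81, -5.83, -4.66 and -1.58 in the transgenic leaves. Transgenic replicates 1 and 4 were the highest for SAG29, while transgenic replicate 2, the highest for SAG12, was the lowest. Of the wild-type arrays 1 was well above background for SAG29, and the rise of 4.66 ± 1.11 (SE, limma adjusted p = 0.0157) lost its call with normexp background correction.

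DIN6 (AT3G47340), the dark-inducible asparagine synthetase ASN1, which loads nitrogen into asparagine for transport, rose by 2.94 ± 0.18 (SE), 7.68-fold (limma adjusted p = 4.79e-05). Its 3 probes rose by 2.80 to 3.18. DIN2 (AT3G60140), a beta-glucosidase gene induced by darkness, rose by 2.46 ± 0.53 (SE, limma adjusted p = 0.0102) by its brightest probe, which 2 of 4 wild-type arrays measured well above background. That call was lost with normexp background correction. The other DIN2 probe was at -0.25 (limma adjusted p = 0.63), so the probes disagree. The 3 that fell were SAG20 (AT3G10985) by 0.38, ERD1 (AT5G51070), a chloroplast Clp protease subunit, by 0.33, and SAG18 (AT1G71190) by 0.29. SAG20 missed the threshold in 7 of 8 fits with 1 array fewer, although its other 2 probes fell further, by 0.50 and 0.76.

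**Figure D4:**
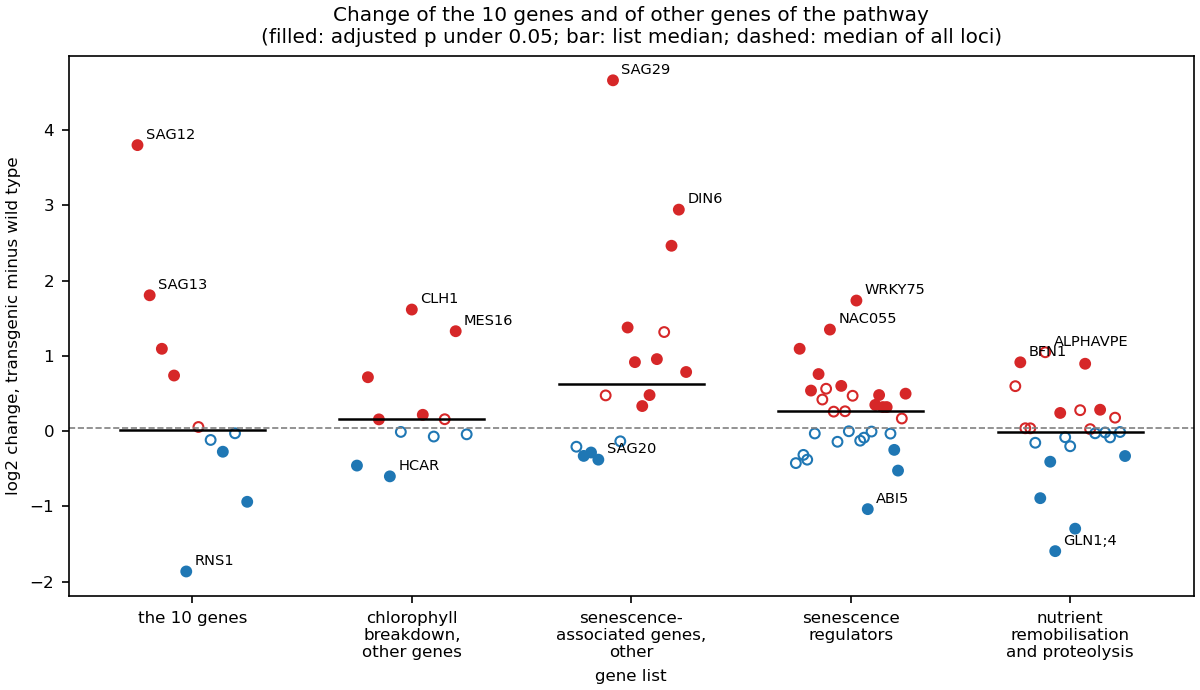
Log2 change (vertical axis, brightest probe) of the 10 genes and of 4 lists of other genes of the pathway, each point 1 gene. Filled points have an adjusted p under 0.05, bars are list medians and the dashed line is the median of all loci, 0.04. The list medians run from -0.01 for nutrient remobilisation to 0.63 for the other senescence-associated genes.

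Among transcription factors and regulators of senescence, 11 of 30 tested rose, 3 fell and 16 missed the threshold, and the median log2 change was 0.26. Of this list 46.7% passed, against 36.9% of all loci. WRKY75 (AT5G13080), which promotes senescence, rose by 1.73 ± 0.43 (SE, limma adjusted p = 0.0229). Wild-type replicate 1 was left out of that value because its spot was marked as an outlier. With outlier spots kept the change was 1.07 and did not pass (limma adjusted p = 0.275), and the call was lost in 7 of 20 alternatives. The NAC factor NAC055 (AT3G15500) rose by 1.35 ± 0.27 (SE, limma adjusted p = 0.00719) and NAP (AT1G69490), a NAC factor that promotes chlorophyll loss, by 1.09 ± 0.20 (SE, limma adjusted p = 0.00486). Both NAP probes rose, by 1.00 and 1.09. ORE1, the central age-dependent NAC factor, was at -0.43 (limma adjusted p = 0.0535), chosen for mention after its value was seen. ABI5 (AT2G36270), an abscisic acid factor that can activate SGR1 and NYC1, fell by 1.04 ± 0.14 (SE, limma adjusted p = 0.00136). RAV1 (AT1G13260) fell by 0.53 and ARF2 (AT5G62000) by 0.25, and RAV1 missed the threshold in 5 of 8 fits with 1 array fewer. NAC055 and ARF2 did not pass with normexp background correction.

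Of the genes that recycle nutrients, nucleic acids and protein, 4 of 23 tested rose, 5 fell and 14 missed the threshold. The share that passed, 39.1%, was near the 36.9% of all loci, and the median log2 change was -0.01. The senescence nuclease gene BFN1 (AT1G11190) rose by 0.91 ± 0.20 (SE, limma adjusted p = 0.0122), and its second probe did not pass at 0.95. The phosphate transporter gene PHT1;5 (AT2G32830) rose by 0.89 ± 0.10 (SE) and the autophagy gene ATG7 (AT5G45900) by 0.28 ± 0.07 (SE). BFN1, PHT1;5 and ATG7 did not pass with normexp background correction, and ATG7 did not pass with median scaling either (0.20). GLN1;4 (AT5G16570), a cytosolic glutamine synthetase, fell by 1.60 ± 0.28 (SE, limma adjusted p = 0.00431). NRT1.7 (AT1G69870), which loads nitrate from old leaves into the phloem, fell by 1.30 ± 0.10 (SE, limma adjusted p = 0.00011), and both of its probes fell. The vacuolar processing enzyme gene GAMMAVPE (AT4G32940) fell by 0.89 ± 0.13 (SE, limma adjusted p = 0.00214), and all 4 of its probes fell, by 0.89 to 1.46.

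The label of leaf tissue was checked with 5 mesophyll markers, all well above background on all 8 arrays. By their brightest probes RBCS1A, CAB1 and RCA did not pass, while LHCB2.1 rose by 1.03 and CA1 by 0.96, a call that CA1 lost in 4 of 8 fits with 1 array fewer. Of all their probes 3 of 13 for RBCS1A, 1 of 9 for CAB1 and 4 of 9 for RCA were higher and none lower. The brightest RBCS1A probe had the lowest change of its 13, at -0.09, and the highest was 0.64. Several of these genes have close copies that a probe may share. Markers of other tissues were mostly higher as well, where 20.1% of all loci passed as higher. All 5 xylem and secondary wall markers passed as higher, among them XCP1 at 1.35, IRX3 at 1.24 and IRX1 at 1.24. These 3 did not pass with normexp background correction, and XCP1, whose genotypes overlapped, missed the threshold in 6 of 8 fits with 1 array fewer. The summed signal of all 5, in units of the 75th percentile, was 0.633 to 1.569 in the wild type and 1.576 to 2.46 in the transgenic leaves. XCP2, the largest part of that sum, also overlapped between genotypes (limma adjusted p = 0.0471). Of 4 flower organ markers 3 were tested and 2 higher, SEP3 at 1.60 and AG at 1.27, with sums of 0.0767 to 0.182 and 0.191 to 0.316. Of 3 root markers 2 were tested and both higher, PYK10 at 3.10 and NRT2.1 at 0.59, with sums of 0.0804 to 0.169 and 0.349 to 1.12. The NRT2.1 genotypes overlapped, and its call was lost in 11 of 21 alternatives. SEP3, AG and PYK10 did not pass with normexp background correction. None of 3 seed markers was bright enough to test. The part of these markers in the changes of the 10 genes was not tested. RAP2.9 itself rose 17.7-fold by 1 probe and fell 3.42-fold by the other.

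**Figure D5:**
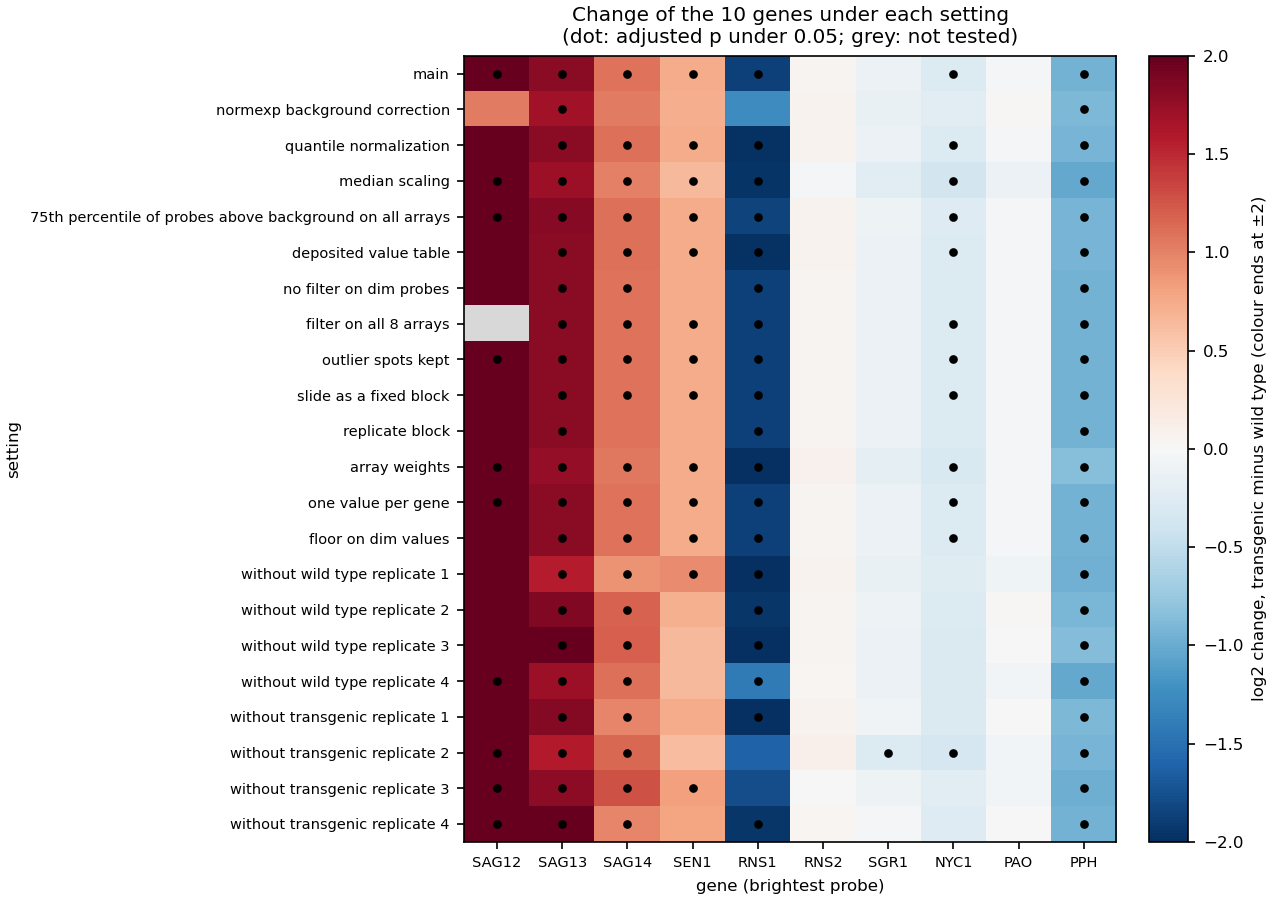
Log2 change (colour, which ends at 2) of the brightest probe of each of the 10 genes (columns) under the reported setting and 21 alternatives (rows). Dots have an adjusted p under 0.05, and grey was not tested. SAG13 and PPH pass in all rows, and SAG12, SAG14, SEN1, RNS1 and NYC1 do not.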

How the data were processed

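Per the file headers, spot intensity was read from 1-colour Agilent arrays (design 021169) with Feature Extraction 11.5.1.1, which subtracted background and spatial trend from every array to give its processed signal. Per the labels' protocols, 200 ng of RNA was labelled per array. The authors also deposited a table of log2 values, centred on each probe's own average. Its column medians ran from -0.0146 to 0.0116. The sources used here do not give its normalization, and Pearson's r with the centred scanner values was 0.566 for transgenic replicate 1 and 0.917 to 0.976 for the others.

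Processed signals were put on a log2 scale minus each array's 75th percentile, without control spots and 25 to 63 outlier spots per array. Probes well above background on at least 4 of 8 arrays, 33147 of 43603, were fitted with limma 3.58.1 (lmFit and eBayes, two-sided) in R 4.3.3, with Benjamini-Hochberg adjustment over all probes tested. Of these probes, 34% passed. Each gene was called by its brightest tested probe, and all 18 probes of the 10 genes passed the filter. Probes were matched to loci by RefSeq transcript, 34348 of 43603, through the RefSeq gene table for TAIR10.1.

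On the 8 arrays, 72.5% to 84.3% of probes measured well above background. The number of arrays limits the precision, and the p-values set the difference between genotypes against the spread between these samples. Whether the differences hold in other transgenic lines was not tested. The fit was tested on simulated data. The genes and lists were chosen with earlier results of these data known. Besides the 10 genes, the text names from each list up to 3 higher and 3 lower genes with the largest change (in a list with none past the threshold, at most 2 by smallest p), and the 3 loci most like SAG12. The alternatives were normexp (offset 50), 3 other scalings, the value table, other filters, outlier spots kept, slide and replicate blocks, array weights, 1 value per gene, leaving out each array, and a floor on dim values, which was chosen after seeing the data. The normexp setting was planned for mean spot signals and used the median spot signals that the files hold. These are unprocessed, so that setting also leaves out the subtraction of spatial trend. Bright probes lost calls there too, such as NYC1 (limma adjusted p = 0.291), so a lost call need not come from dim signal.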

Additional observations from a re-analysis of the deposited data

Results flagged for a closer look

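SAG12 had 3 values far from the other arrays of their genotype, judged by Dixon's ratio of the gap to the range. Transgenic replicate 2 was at -0.69 for the brighter SAG12 probe, with the nearest other array at -4.90 (ratio 0.845). For the second SAG12 probe it was at -1.23, with the nearest at -5.58 (ratio 0.955). On that second probe wild-type replicate 1 was at -4.31, with the nearest at -8.18 (ratio 0.831), while the brighter probe on the same array was at -8.74. Of 100 groups examined, 3 were marked in this way, and chance marks about 5% of groups.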

How the results depend on the processing

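Counts kept within 1.5 times of those reported under most alternatives. With normexp background correction 1 of the 10 genes was higher (SAG13) and 1 lower (PPH), 9 other pathway genes were higher and 5 lower, 2 tissue markers were higher, and 1666 probes were higher and 1890 lower, against 6019 and 5246. The cause was not tested. With no filter on dim probes 2 of the 10 genes were higher, where adjustment ran over 43603 probes. Leaving out 1 array at a time gave 2 to 4 of the 10 genes higher and 1 to 3 lower, 21 to 28 other pathway genes higher and 8 to 13 lower, and 7 to 10 tissue markers higher and 0 to 1 lower. These ranges hold smaller groups by construction. Median scaling gave 4111 probes higher and 6720 lower, 38% higher against 53.4%.

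SAG12 lost its call in 11 of 20 alternatives, with a limma adjusted p of 0.0146 to 0.67, SEN1 in 9 of 21 and NYC1 in 10 of 21. RNS1 lost its call in 3 of 21 and SAG14, by its brightest probe, in 2 of 21. SAG12 was not tested with the filter that asks for all 8 arrays. PAO changed sign with normexp (0.022), and leaving out 1 array at a time gave it -0.080 to 0.029. RNS2 changed sign with median scaling (-0.034). Neither passed in any setting.

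Replicate numbers were shared between genotypes, with correlations of deviations of 0.14, -0.09, -0.29 and 0.26 for numbers 1 to 4. For numbers 1 and 4 the best-matching transgenic array had the same number as the wild-type array. Arrays of the same number lay on different slides, so these values cannot decide whether the numbers pair the arrays. With the replicate block 1 of the 10 genes was higher (SAG13) and 2 lower (RNS1 and PPH), and 5218 probes were higher and 3931 lower. SAG12, SAG14, SEN1 and NYC1 lost their calls in that setting. Dim signals limit SAG12, SAG29 and DIN2, which lie near background in the wild type. Their brightest probes passed the filter on dim probes through the transgenic arrays, where they are high.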
